A study of Mus musculus with 28 samples.

Results

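The constitutive proteasome genes described here are the 37 protein-coding genes, of 54532 genes in the count table, whose symbol starts with Psma, Psmb, Psmc or Psmd and a digit, without the inducible subunits Psmb8, Psmb9 and Psmb10. No expression value was used to choose them. They comprise 7 genes of the alpha ring, 4 structural and 3 catalytic genes of the beta ring, 6 ATPases and 3 other subunits of the base, and 8 subunits of the lid, which together are 31 subunits of the mature 26S particle. Another 3 (Psmd5, Psmd9 and Psmd10) encode chaperones that help to assemble the base. The last 3 meet the symbol rule only by name or in other tissues: Psma8 encodes an alpha subunit of germ cells, Psmb11 a catalytic subunit of the thymic cortex, and Psmc3ip a recombination factor named for its binding to Psmc3. Of the 37 genes, 35 reached 10 TPM (transcripts scaled to gene length and library total) in at least 1 culture. Psma8 had at most 236 counts in a culture, and Psmb11 had at most 7 counts and none in 24 of 28 cultures, so neither was tested. Psmc3ip was tested only in comparisons that include control or VWF cultures at 16 h. It reached the filter only in those groups, where it was highest, so its direction against other groups is tied to the filter. Its calls against them, and its part in the counts of called members, are therefore no separate evidence of a change.

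Bulk RNA sequencing covered 28 cultures of murine bone marrow-derived macrophages (BMDM), grown with M-CSF from bone marrow of C57/B6JB mice of 8 to 12 weeks. Treated cultures received plasma-derived von Willebrand factor (pd-VWF, 10 µg/ml) or bacterial lipopolysaccharide (LPS, 100 ng/ml), and control cultures PBS, in fresh medium with 1 mM CaCl2. RNA was taken at 3.5 h or 16 h from separate cultures, with 5 control, 5 VWF and 4 LPS cultures at each time. All cultures held M-CSF before treatment, and VWF was a plasma product tested at 1 dose without a second preparation in these libraries. The labels call the cultures biological replicates but do not say whether they came from separate mice, so p-values measure the spread between cultures. In bulk RNA, fewer cells of a type and less RNA per cell cannot be told apart.

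The 26S proteasome degrades proteins marked with ubiquitin. Its 20S core is a barrel of alpha and beta rings, in which Psmb6, Psmb7 and Psmb5 encode the caspase-like, trypsin-like and chymotrypsin-like subunits. The 19S regulatory particle, made of base and lid, binds and unfolds substrates and removes ubiquitin. In macrophages exposed to interferon or microbial products, Psmb9, Psmb10 and Psmb8 can take the places of these catalytic subunits to form the immunoproteasome, which serves antigen presentation. Subunit genes are known to be transcribed through antioxidant response elements, bound by NRF1 (gene Nfe2l1) and NRF2 (gene Nfe2l2).

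Promoter sequence is shown for 2 catalytic genes that hold the core of this element and for the 2 members with the largest rise after VWF at 3.5 h. The sequences are the 150 bases upstream of the RefSeq start on GRCm38.p6, written 5′ to 3′ on the strand of the gene. For Psmb5 and Psmd10, the gene start of GENCODE (54618022 and 140956728) lies inside the printed stretch, so its last bases fall within the GENCODE gene. Capitals mark the antioxidant response element core TGACNNNGC in the first pair and the NF-Y box CCAAT, or its reverse complement ATTGG, in the second. Psmb5 lies on the minus strand (chr14:54617996-54618145) and Psmb6 on the plus strand (chr11:70525207-70525356). Psma6 has 2 RefSeq starts, of which the one that holds the box is shown (plus strand, chr12:55384072-55384221). Psmd10 is on the minus strand (chrX:140956712-140956861).
Psmb5: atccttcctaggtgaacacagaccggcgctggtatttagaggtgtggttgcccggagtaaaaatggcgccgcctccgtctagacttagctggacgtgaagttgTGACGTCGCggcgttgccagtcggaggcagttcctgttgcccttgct
Psmb6: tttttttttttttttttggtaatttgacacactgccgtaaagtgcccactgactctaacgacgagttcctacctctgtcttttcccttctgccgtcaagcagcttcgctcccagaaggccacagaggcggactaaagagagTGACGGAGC
Psma6: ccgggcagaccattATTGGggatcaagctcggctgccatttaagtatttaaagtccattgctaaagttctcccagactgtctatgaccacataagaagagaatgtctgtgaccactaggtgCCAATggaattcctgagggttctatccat
Psmd10: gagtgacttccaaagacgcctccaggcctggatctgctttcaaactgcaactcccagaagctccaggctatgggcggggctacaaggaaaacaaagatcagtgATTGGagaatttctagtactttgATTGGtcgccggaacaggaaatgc

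Of the 37 genes, 30 had a RefSeq promoter window from 250 bases before to 50 after the start. Searched on both strands, the element core was present in 5 of these 30 genes (16.7%), namely Psmb5, Psmb6, Psmc6, Psmd9 and Psmd12, against 14.0% of 27025 genes with a window and 12.4% of 32851 windows. The NF-Y box was present in 13 of 30 genes (43.3%), against 41.1% of genes and 37.4% of windows. A match shows only that the letters are in the window.

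The cultures had 41131209 to 77699206 counts each. At 16 h, Control replicate 5 and LPS replicate 4 stood apart from the other cultures of their groups. Their median absolute log2 deviation from the group was 0.487 and 0.400, against 0.0619 to 0.255 in the other 26 cultures, and their deviations correlated across 8867 genes (Pearson's r = 0.879, a description over genes). In both, short genes lay above the group and long genes below it, by 0.331 and −0.253 (log2) in the 25% shortest and the 25% longest genes in Control replicate 5 and by 0.295 and −0.303 in LPS replicate 4. The 31 subunit genes, with a median exon length of 2808 bases against 3930 over all these genes, lay at a median of 0.203 and 0.432 above their groups in the same libraries. What caused this was not tested, and many of the results that rest on these libraries, though not all, are given with and without them. Macrophage markers (8 of 8 found) summed to 5862 to 26060 CPM (counts scaled to the library total) over all groups. The sum was highest with VWF at 16 h (18740 to 26060 CPM), against 5862 to 17310 in control and 9937 to 14680 with LPS at that time. It is led by Lyz2, with means of 16750, 10130 and 3807 CPM in VWF, control and LPS cultures at 16 h. By mean at that time, Lyz2, Adgre1, Csf1r and Itgam were highest with VWF, and Cd68, Fcgr1, Mertk and Cd14 with LPS. The means of Cd14 and Mertk were lower with VWF than in control. Markers of T cells, B cells, erythroid cells and mast cells summed to less than 1 CPM, those of neutrophils to at most 31.3 CPM, and those of fibroblasts to between 17.4 and 403 CPM. Of 4 dendritic cell markers, Flt3 and Siglech stayed under 1 CPM, while the sum was at most 1.95 CPM in control cultures, 13.6 to 19.3 CPM with VWF at 3.5 h, 21.6 to 27.1 CPM with LPS at 3.5 h, at most 2.91 CPM with VWF at 16 h and 12.9 to 29.9 CPM with LPS at 16 h. The part of these markers in the results was not tested.

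Fold changes come from edgeR with TMM factors, which set the median gene near 0, and CPM values are scaled by TMM factors over all cultures. A gene was called at an adjusted p under 0.05 over all genes tested, and the added threshold of the study was an absolute log2 fold change over 1. Counts of called members under other settings than these and library size scaling are given without the share of all genes. That share can move with the setting as well, so a change in such a count is not one particular to the members. Scaling by library size alone moved the median of all genes tested, against control, to −0.22 for VWF and −0.55 for LPS at 3.5 h, and to −0.09 and −0.59 at 16 h. The median of the tested members was then 0.02, −0.03, 0.33 and 0.10. It lay above the median gene by 0.25, 0.52, 0.40 and 0.69 with TMM and by 0.25, 0.52, 0.41 and 0.69 by library size. Library size scaling moves all genes of a comparison by nearly the same amount, so this agreement is no separate check. The direction of single members relative to control depended on the scaling, mainly with LPS. Directions of fold changes below are relative to the median gene. TPM values and their sums are scaled to the library total and are not.

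**Figure D1:**
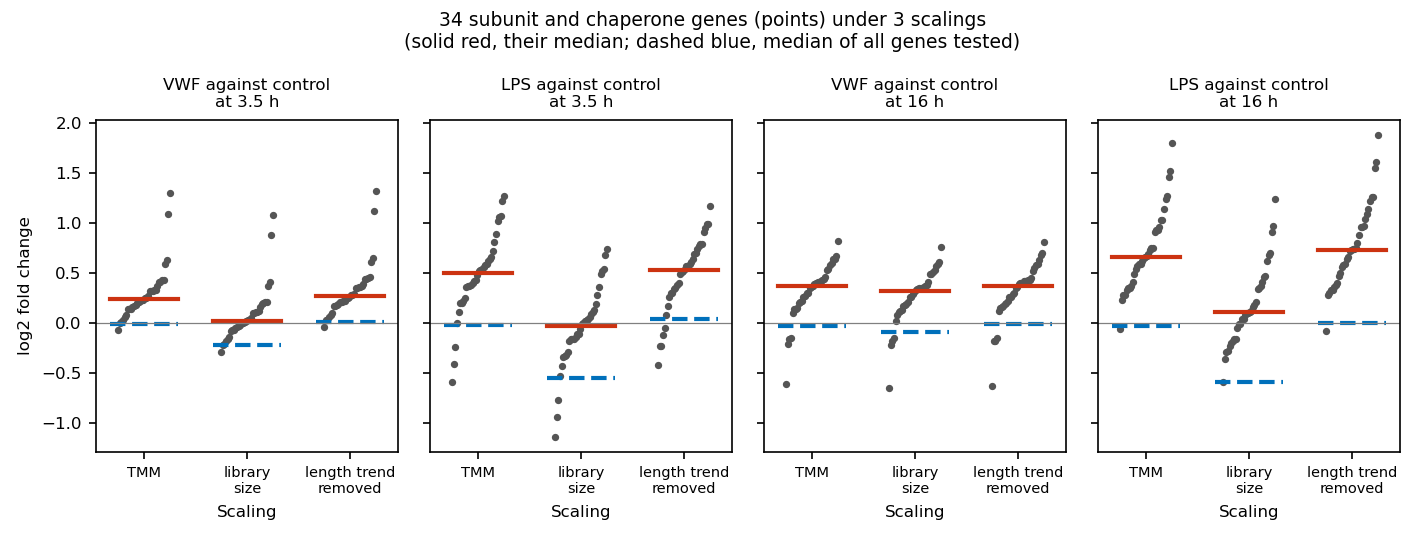
Log2 fold change against control (y axis) of 34 subunit and chaperone genes (points, sorted) in 4 comparisons under 3 scalings (x axis): TMM, library size, and TMM with the trend on gene length removed. The solid red line, the median of these genes, lies above the dashed blue line, the median of all genes tested, in all 12 columns, and both drop under library size scaling with LPS.

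In TPM, which divides by exon length and so allows genes to be compared, the subunit genes spanned a wide range of levels in control cultures at 3.5 h. Psmb5 was highest at a mean of 424 TPM, followed by Psmd8 (411), Psmb6 (406) and Psma6 (356). At the other end, the base subunit Psmd1 had 42.5 TPM, the lid subunit Psmd11 38.9, and the chaperones Psmd5 and Psmd9 had 22.8 and 18.6. The trypsin-like subunit Psmb7 had 64.9 TPM, far below the other two catalytic genes. Psmc3ip had 6.22 TPM and Psma8 1.74. Psma6 had the highest mean of the 37 genes with VWF at 3.5 h (751 TPM), while with LPS at 16 h Psmb6 (942), Psmb5 (840) and Psma6 (823) led. These levels rest on the annotated exon length of each gene, which need not be that of the transcripts expressed.

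VWF for 3.5 h was compared with PBS to ask how the genes respond early. Of 34 members tested, 14 were higher and 0 lower, against 22.3% higher and 21.3% lower of 8200 genes tested, and the median log2 fold change was 0.24 against −0.01 over all genes. Only Psma6 and Psmd10 passed the fold threshold of the study, which 14.7% of all genes passed in either direction. The calls covered 4 of 7 alpha ring genes, 1 of 4 structural and 1 of 3 catalytic beta genes, 2 of 6 base ATPases, 1 of 3 other base subunits, 4 of 8 lid genes and 1 of 3 chaperones. The 0 lower calls compare with 0 in DESeq2, and under library size scaling 3 were higher and 2 lower, against 15.0% and 38.3% of all genes. With the length trend removed there were 22 higher calls, given without the share of all genes.

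Psma6, an alpha ring subunit (chr12:55384222-55418454), was at 148, 152, 163, 103 and 121 CPM in the 5 control cultures. With VWF it was at 257, 340, 415, 406 and 261 CPM. Every VWF culture lay above every control culture, and the log2 fold change was 1.30 (SE 0.17, adjusted p = 7.225e-05). Psmd10, the base chaperone also known as gankyrin (chrX:140948429-140956728), went from 33.9, 33.4, 35.4, 26.3 and 25.6 CPM in control cultures to 54.2, 67.2, 75.3, 75.0 and 55.0 CPM. The groups did not overlap, and the log2 fold change was 1.09 (SE 0.13, adjusted p = 3.63e-05). Psma5, another alpha subunit (chr3:108256926-108279974), had 86.7, 92.3, 101, 62.5 and 81.0 CPM in control cultures and 102, 130, 145, 150 and 102 CPM with VWF, just apart, a log2 fold change of 0.59 (SE 0.15, adjusted p = 0.007417). Of the 100-base windows of Psma5 transcripts, 23.7% also occur in other genes, mainly the processed copy Gm8394, so part of its count may be split, whereas Psma6 and Psmd10 share none.

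Among the catalytic genes at 3.5 h, Psmb6 (chr11:70525367-70527858) had 270, 261, 292, 158 and 209 CPM in control cultures and 272, 372, 479, 432 and 265 CPM with VWF. The groups overlapped, and the log2 fold change was 0.63 (SE 0.20, adjusted p = 0.02724). The call was lost when Control replicate 5 or VWF replicate 2, 3 or 4 was left out (adjusted p between 0.0506 and 0.0658), when all 28 cultures were fitted together (adjusted p = 0.114) and under library size scaling. Psmb5 (chr14:54614119-54618022), at 147, 131, 145, 78.1 and 96.8 CPM in control and 113, 137, 185, 169 and 91.5 CPM with VWF, had a log2 fold change of 0.23 (SE 0.22, adjusted p = 0.4484). Psmb7 (chr2:38588036-38644087) had 69.3, 79.3, 75.5, 56.9 and 64.6 CPM in control and 74.2, 75.5, 96.4, 92.1 and 68.1 CPM with VWF, a log2 fold change of 0.25 (SE 0.12, adjusted p = 0.1186). Neither Psmb5 nor Psmb7 was called, though both passed with the length trend removed (adjusted p = 0.0378 and 0.0485). Psmb5 shares 22.2% of its windows with other genes, mainly Gm3375, and overlaps Mir686 on the same strand.

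**Figure D2:**
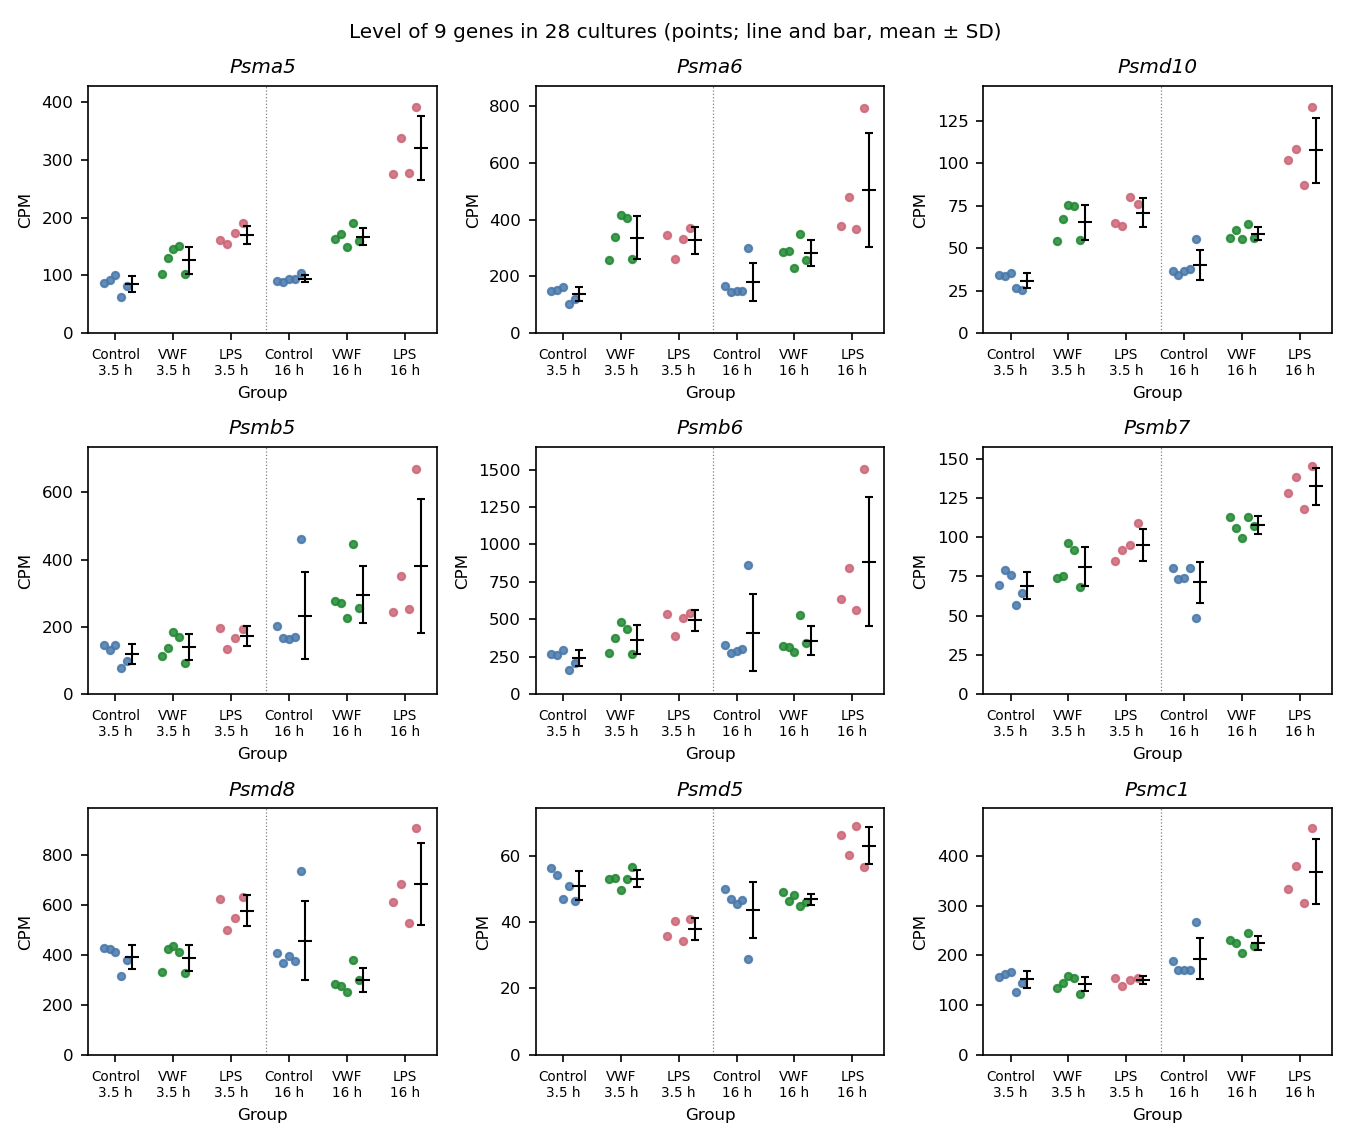
CPM (y axis) of 9 member genes in the 6 groups (x axis), with 1 point per culture and the mean ± SD beside the points (n = 5, 5 and 4 for control, VWF and LPS at each time). Psma6 and Psmd10 are above all control cultures with both agonists at 3.5 h, and the single high points in the 16 h control and LPS groups are Control replicate 5 and LPS replicate 4.

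LPS for 3.5 h was compared with the same control cultures, so its values share their error with those of VWF. Of 34 members, 25 were higher and 3 lower, against 31.8% higher and 33.9% lower of 8190 genes, and the median was 0.50 against −0.02. Past the fold threshold were 5 members, all higher (Psma3, Psma5, Psma6, Psmb6 and Psmd10), against 24.5% of all genes. Higher calls covered 6 of 7 alpha genes, all 7 beta genes, 3 of 6 base ATPases, 2 of 3 other base subunits and 6 of 8 lid genes. Scaled by library size alone, 5 were higher and 9 lower, against 14.4% and 62.7% of all genes.

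Psma6 was at 344, 261, 333 and 370 CPM with LPS and Psmd10 at 65.0, 62.8, 80.1 and 76.0 CPM, in each case above all 5 control cultures. Their log2 fold changes were 1.27 (SE 0.15, adjusted p = 2.531e-05) and 1.22 (SE 0.13, adjusted p = 9.671e-06), and both remained called under library size scaling at 0.74 and 0.68. Psmb6 had 535, 391, 510 and 540 CPM, also above all control cultures, with a log2 fold change of 1.07 (SE 0.18, adjusted p = 0.0003333) that was 0.54 under library size scaling. Psmb7, at 84.8, 91.6, 94.9 and 109 CPM, was higher by 0.48 (SE 0.12, adjusted p = 0.004196) but stood at −0.06 under library size scaling, where the median gene was at −0.55. Psmb5, at 197, 134, 166 and 194 CPM, overlapped the control cultures. Its log2 fold change of 0.55 (SE 0.20, adjusted p = 0.03167) was no longer called under library size scaling (0.02), with the length trend removed (0.18), or with Control replicate 5 or LPS replicate 1, 3 or 4 left out (adjusted p between 0.0515 and 0.0870).

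The 3 members that were lower after LPS at 3.5 h belong to the 19S particle or its assembly. Psmd5, a base chaperone, had 56.3, 54.2, 46.9, 50.9 and 46.4 CPM in control and 35.7, 40.4, 34.4 and 40.9 CPM with LPS, without overlap. It fell by 0.41 on the log2 scale (SE 0.10, adjusted p = 0.003348), by 0.94 under library size scaling and by 0.23, without a call, with the length trend removed. The lid subunit Psmd12 went from 85.4, 90.5, 102, 86.3 and 97.6 CPM to 79.7, 71.5, 80.0 and 77.9 CPM and fell by 0.24 (SE 0.08, adjusted p = 0.02481). That call was lost when Control replicate 3 or 5 or LPS replicate 2 was left out (adjusted p between 0.0667 and 0.0775). Psmd1, the base scaffold, fell by 0.59 with overlapping groups, and is named outside the naming rule to complete the 3. Levels were also taken relative to the geometric mean of the 31 subunits in each culture. This measure needs no scaling between libraries but is not corrected for gene length. By it, Psmd1 and Psmd12 differed from control by −1.08 and −0.73 (log2, no overlap), and Psma6 and Psmb6 by 0.79 and 0.60 (no overlap).

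**Figure D3:**
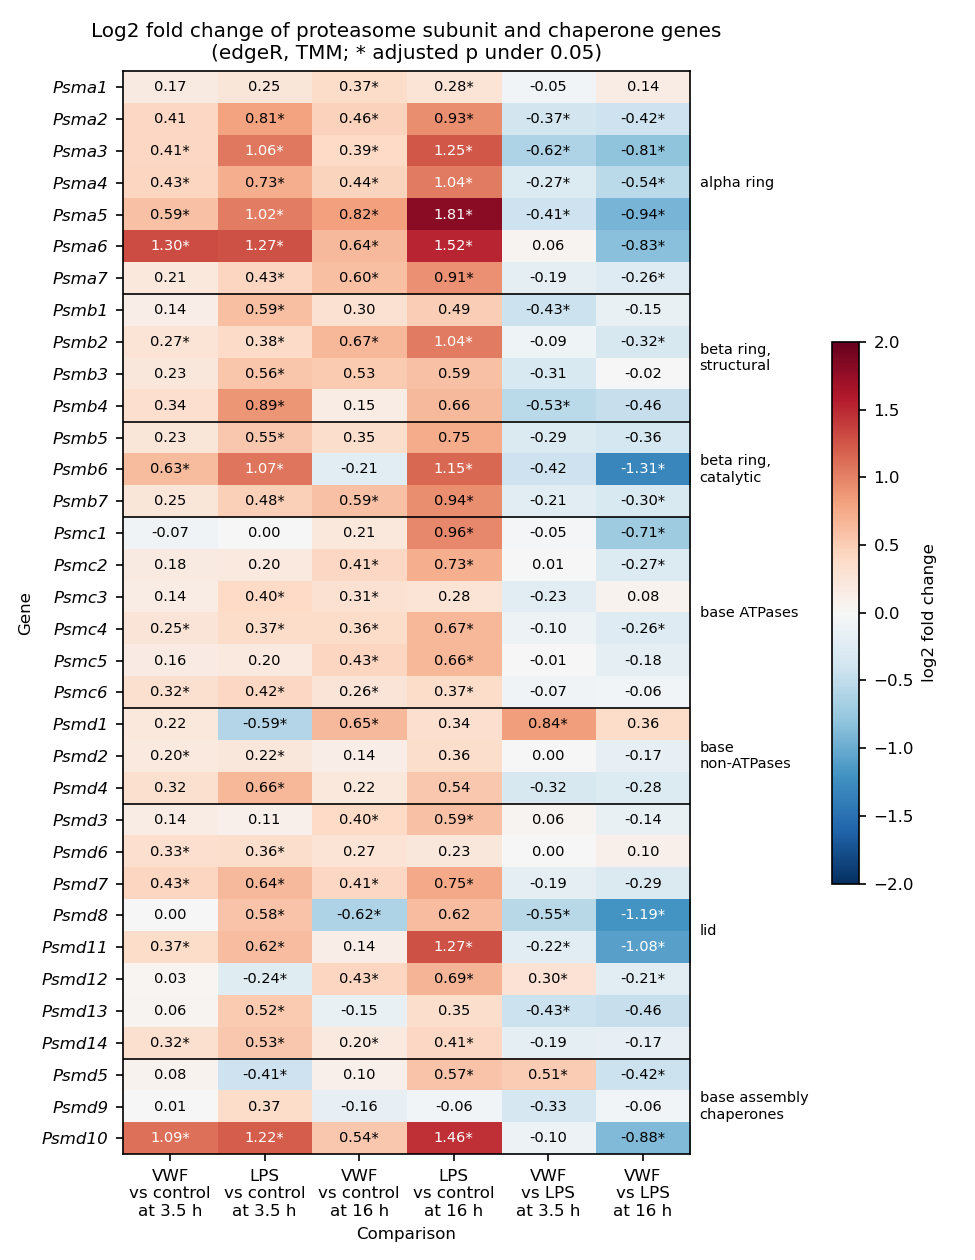
Log2 fold change (colour and number; red, first group higher) of 31 subunit and 3 chaperone genes (rows, grouped by role) in 6 comparisons (columns); an asterisk marks an adjusted p under 0.05 in edgeR. The alpha ring is red against control in every column, and VWF is mostly blue against LPS at 16 h.

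VWF was then set against LPS directly. At 3.5 h, 3 of 34 members were higher with VWF and 9 lower, against 26.3% and 24.0% of 7500 genes, 0 members passed the fold threshold against 11.4% of genes, and the median was −0.19 against 0.02. Under library size scaling, which moved the median gene to 0.32, 13 were higher and 2 lower, against 50.9% and 11.7% of all genes, and the members' median was 0.10. Leaving out LPS replicate 1, 3 or 4 reduced the lower calls to 4, 3 and 2. The largest differences in each direction were in Psmd1, which was at 126, 95.7, 81.4, 91.0 and 146 CPM with VWF and 52.1, 77.7, 59.5 and 56.8 CPM with LPS (log2 fold change 0.84, SE 0.19, adjusted p = 0.004233), and in Psma3, an alpha subunit at 152, 183, 191, 203 and 149 CPM with VWF and 285, 240, 279 and 295 CPM with LPS (−0.62, SE 0.11, adjusted p = 0.0008631). In neither gene did the groups overlap. Psmd5 was higher with VWF by 0.51 (adjusted p = 0.0006278), and the lid subunit Psmd8 differed by −0.55 (adjusted p = 0.002853), both without overlap. The catalytic genes Psmb5, Psmb6 and Psmb7 had −0.29, −0.42 and −0.21, none called, and Psmb5 and Psmb7 changed sign under library size scaling (0.0031 and 0.09) but lay below its median gene.

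At 16 h, VWF against control gave 21 higher and 1 lower of 35 members, against 13.1% higher and 14.7% lower of 7798 genes. The median log2 fold change was 0.37 against −0.03, and 0 members passed the fold threshold of the study against 8.71% of genes. Scaled by library size alone, 17 were higher and 1 lower, against 9.76% and 16.5% of all genes. All 7 alpha ring genes were higher, with log2 fold changes from 0.37 (Psma1) to 0.82 (Psma5), and 5 of 6 base ATPases, 4 of 8 lid genes, 1 of 4 structural beta genes (Psmb2) and 1 of 3 catalytic genes (Psmb7). Without Control replicate 5, 28 members were higher and 1 lower, given without the share of all genes.

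Psma5 had 90.8, 88.9, 92.9, 93.3 and 105 CPM in control cultures at 16 h and 163, 172, 149, 191 and 160 CPM with VWF. The gap between the groups was wide, and the log2 fold change was 0.82 (SE 0.08, adjusted p = 2.45e-05). Psmb2, a structural beta subunit, went from 98.8, 100, 99.0, 92.1 and 71.6 CPM to 152, 152, 142, 160 and 132 CPM (0.67, SE 0.11, adjusted p = 0.0009596). Psmb7 rose from 80.0, 73.5, 74.0, 80.1 and 48.5 CPM to 113, 106, 99.4, 113 and 107 CPM, again without overlap (0.59, SE 0.13, adjusted p = 0.008153, and 0.51 with adjusted p = 0.0572 under library size scaling). Psmd1 was at 81.0, 93.1, 91.5, 85.4 and 44.7 CPM in control and 131, 124, 158, 94.0 and 116 CPM with VWF, with a log2 fold change of 0.65 (SE 0.21, adjusted p = 0.04352). The Psmd1 call stayed without Control replicate 5, at 0.50 (adjusted p = 0.0129). It was lost when Control replicate 1, 3 or 4 or VWF replicate 1, 2, 3 or 5 was left out (adjusted p between 0.0552 and 0.103). Under library size scaling it was lost as well (0.57, adjusted p = 0.137).

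Psmb5 at 16 h was at 201, 165, 164, 169 and 462 CPM in control, the last value being Control replicate 5, and at 277, 272, 228, 445 and 257 CPM with VWF. The log2 fold change of 0.35 (SE 0.31, adjusted p = 0.4812) became 0.74 (adjusted p = 0.00644) without that culture. Psmb6 had 329, 271, 285, 304 and 865 CPM in control and 319, 316, 280, 525 and 340 CPM with VWF, so that all but 1 value of each group lay in the same range. Its log2 fold change was −0.21 (SE 0.33, adjusted p = 0.7196) and turned to 0.24 (adjusted p = 0.253) without Control replicate 5. The single lower call was Psmd8, at 409, 367, 395, 376 and 738 CPM in control and 283, 278, 254, 381 and 300 CPM with VWF, which fell by 0.62 on the log2 scale with overlapping groups. The control value of 738 CPM is that of Control replicate 5, and the log2 fold change without that culture is not given. The call was lost when Control replicate 1 or 3 or VWF replicate 1, 2, 3 or 5 was left out. Relative to the mean of the 31 subunits, Psmd8 differed from control by −0.93 (log2) with VWF, without overlap. Psmd8 is named outside the naming rule because it is the only lower member.

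LPS at 16 h gave 22 higher and 1 lower of 35 members, against 27.3% and 26.4% of 7994 genes, with a median of 0.66 against −0.03. Past the fold threshold were 8 members higher and 1 lower, together 9, against 27.6% of genes. Library size scaling gave 10 higher and 3 lower, against 15.0% and 53.1% of all genes. Without Control replicate 5 there were 31 higher calls, without LPS replicate 4 there were 21, and without both there were 32, with 1 lower call each time. The share of all genes in these settings is not given. All 7 alpha genes, 5 of 6 base ATPases, 5 of 8 lid genes, 2 of 3 catalytic genes, 2 of 3 chaperones and 1 of 4 structural beta genes were higher, and of Psmd1, Psmd2 and Psmd4 none was called.

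Psma5 reached 276, 337, 278 and 391 CPM with LPS, above all control and all VWF cultures at 16 h, with a log2 fold change of 1.81 (SE 0.13, adjusted p = 2.003e-06) that was 1.24 under library size scaling. Psma6 was at 165, 143, 148, 148 and 300 CPM in control and 376, 480, 366 and 795 CPM with LPS (1.52, SE 0.31, adjusted p = 0.002418). Psmd10 was at 36.6, 34.2, 36.7, 37.8 and 55.6 CPM in control and 102, 109, 87.1 and 133 CPM with LPS (1.46, SE 0.18, adjusted p = 9.193e-05). None of these groups overlapped, and without both deviating libraries the log2 fold changes were 1.73, 1.47 and 1.48. Psmc3ip was the member that fell, from 6.35, 6.04, 6.28, 4.49 and 7.23 CPM in control to 0.892, 1.21, 1.80 and 0.857 CPM with LPS (log2 fold change −2.32, SE 0.28, adjusted p = 7.81e-05). It is no proteasome subunit, and 14.6% of its windows also occur in other genes, mainly Mlx, which overlaps it on the opposite strand. Psmc3ip entered this comparison only through the control cultures, where it is high, so its direction is tied to the filter.

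Psmb6 had 632, 841, 561 and 1504 CPM with LPS at 16 h, the last being LPS replicate 4, and overlapped Control replicate 5. Its log2 fold change of 1.15 (SE 0.43, adjusted p = 0.04983) was 0.62 without a call under library size scaling. The call was lost when any of Control replicates 1 to 4 or LPS replicate 1, 2 or 4 was left out (adjusted p between 0.0546 and 0.152), and without both deviating libraries it was 1.22 (adjusted p = 2.176e-05). Psmb7 rose to 128, 139, 118 and 145 CPM, without overlap with control (0.94, SE 0.15, adjusted p = 0.0005272). Under library size scaling Psmb7 was at 0.35 and not called. Psmb5, at 245, 352, 252 and 670 CPM, overlapped Control replicate 5 and had a log2 fold change of 0.75 (SE 0.42, adjusted p = 0.1648), which was 0.73 (adjusted p = 0.000759) without both deviating libraries 0.31 (adjusted p = 0.505) without LPS replicate 4 alone and 1.16 (adjusted p = 0.0120) without Control replicate 5 alone.

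Between the agonists at 16 h, 1 of 35 members was higher with VWF and 17 lower, against 29.5% and 31.0% of 7574 genes, and 4 passed the fold threshold (Psmb6, Psmd8 and Psmd11 lower, Psmc3ip higher) against 25.5% of genes. The median was −0.28 against 0.00. With the replicate number as a block, 2 were higher and 21 lower, given without the share of all genes. Whether same-numbered cultures were paired is not known. Under library size scaling, which moved the median gene to 0.46, 15 were higher and 7 lower, against 52.8% and 17.3% of all genes. The members' median was then 0.19. It lay below the median gene as with TMM, which is no separate check, since all genes move by nearly the same amount. Psmb6 stayed lower with VWF under both, with a log2 fold change of −1.31 (SE 0.30, adjusted p = 0.003732) and −0.84, without overlap between the groups. Without LPS replicate 4 it was −0.93 (adjusted p = 0.003438), short of the fold threshold. Psmd8 was at 611, 686, 529 and 908 CPM with LPS, all above the 5 VWF cultures, with a log2 fold change of −1.19 (SE 0.17, adjusted p = 0.0001956). It was −0.73 under library size scaling and −1.03 without LPS replicate 4. Psmb7 was at −0.30 (SE 0.08, adjusted p = 0.00999) with TMM and at 0.16 under library size scaling, in each case 0.30 below the median gene. Psmb5 (−0.36, adjusted p = 0.3561) was at 0.12 under library size scaling, also below the median gene, and turned to 0.06 without LPS replicate 4. Psmc3ip, at 8.54, 8.93, 7.93, 9.53 and 8.74 CPM with VWF, was higher than with LPS by 2.88 (SE 0.24, adjusted p = 4.185e-06). It passed the filter here only through the VWF cultures, so that direction is tied to the filter.

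The cultures at 16 h were also compared with those of the same treatment at 3.5 h. Control cultures had 8 members higher and 1 lower of 35, against 20.7% and 20.5% of 8333 genes, 0 past the fold threshold against 9.08%, and a median of 0.25 against 0.03. With the length trend removed the split was 5 higher and 2 lower, and 4 or 5 members were higher when Control 3.5 h replicate 2, 4 or 5 or Control 16 h replicate 1 was left out. Psmb5 was higher by 0.97 (SE 0.32, adjusted p = 0.03476) with no overlap, and by 0.55 (adjusted p = 0.0246) without Control 16 h replicate 5. The structural beta gene Psmb3, at 110, 108, 114, 74.4 and 86.0 CPM at 3.5 h and 144, 122, 125, 122 and 224 CPM at 16 h, was higher by 0.59 (SE 0.20, adjusted p = 0.03576), or 0.38 without that culture. Both calls were lost without Control 3.5 h replicate 2, 4 or 5 (Psmb5, adjusted p between 0.0595 and 0.0813; Psmb3, between 0.0558 and 0.0831, also without Control 16 h replicate 1). Psmd12 fell by 0.33 (SE 0.08, adjusted p = 0.00873). Psmb6 (0.80, adjusted p = 0.08408) and Psmb7 (0.04, adjusted p = 0.8159) were not called.

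VWF cultures had 21 members higher and 2 lower of 35 at 16 h, against 34.7% and 33.2% of 7927 genes, with 2 past the fold threshold (Psmb5 and Psmc3ip) against 21.4% and a median of 0.37 against 0.02. Removing the length trend gave 14 higher and 5 lower. Psmb5 rose by 1.09 (SE 0.22, adjusted p = 0.001002) and Psmb7 by 0.41 (SE 0.10, adjusted p = 0.003265), both without overlap, while Psmb6 did not change beyond the spread (−0.03, SE 0.20, adjusted p = 0.9068). Psmc3ip went from 3.13, 2.54, 1.83, 2.28 and 1.84 CPM to the values above (1.91, SE 0.17, adjusted p = 1.44e-06). It passed the filter only through the 16 h cultures, so this direction too is tied to the filter. The 2 lower members were Psmd8 (−0.37) and Psmd5, which fell by 0.17 (SE 0.06, adjusted p = 0.02967). The Psmd5 call was lost without VWF 3.5 h replicate 2 or 5 or VWF 16 h replicate 2 or 5 (adjusted p between 0.0543 and 0.0873), and its direction flipped to 0.05 with the length trend removed. Without VWF 3.5 h replicate 2 or VWF 16 h replicate 2 no member was lower, and without VWF 3.5 h replicate 3 or 5 or VWF 16 h replicate 1 or 5 there was 1.

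LPS cultures had 21 members higher and 0 lower of 34 at 16 h, against 31.8% and 29.1% of 6987 genes, with 2 past the fold threshold (Psmc1 and Psmb5) against 28.1% and a median of 0.61 against 0.04. DESeq2 gave 1 lower member, as did leaving out LPS 3.5 h replicate 1. Psmc1, a base ATPase, was at 155, 138, 151 and 156 CPM at 3.5 h and 334, 379, 304 and 456 CPM at 16 h, well apart, with a log2 fold change of 1.32 (SE 0.14, adjusted p = 3.936e-05). Psmb5 rose by 1.17 (SE 0.33, adjusted p = 0.01309), or by 0.74 without LPS 16 h replicate 4, and Psmb7 by 0.51 (SE 0.11, adjusted p = 0.002699). Psmb6 rose by 0.87 (SE 0.30, adjusted p = 0.03326) and by 0.48 without LPS 16 h replicate 4. That call was lost without any 1 of the LPS 3.5 h replicates or LPS 16 h replicate 2 (adjusted p between 0.0563 and 0.0868).

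Whether the effect of an agonist differed between the times was tested as an interaction. For VWF, 4 members had a higher log2 fold change at 16 h than at 3.5 h and 1 a lower one, of 35, against 15.9% and 16.6% of 8660 genes, with 1 past the fold threshold (Psmc3ip) against 13.5% and a median of 0.08 against 0.01. Under library size scaling 10 were higher and 1 lower, against 19.3% and 12.5% of all genes, with the length trend removed 4 and 4, and without Control 16 h replicate 5 there were 7 higher. Psmb2 had a larger rise at 16 h (difference 0.43, SE 0.12, adjusted p = 0.01033), a call that was lost with the length trend removed (0.34, adjusted p = 0.252) and without the filter (adjusted p = 0.0872). Psmd10 had a smaller one (difference −0.53, SE 0.19, adjusted p = 0.03958), since its log2 fold change was 1.09 at 3.5 h and 0.54 at 16 h. The Psmd10 call was lost without Control 3.5 h replicate 4 or 5, VWF 3.5 h replicate 2, 3 or 4, or VWF 16 h replicate 1, 3 or 5 (adjusted p between 0.0501 and 0.0774). For Psma6, 1.30 at 3.5 h and 0.64 at 16 h, the difference was −0.64 and not called. The catalytic genes Psmb5 (0.13), Psmb6 (−0.81) and Psmb7 (0.37) had no called difference.

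For LPS, 13 members had a higher log2 fold change at 16 h and 1 a lower one, of 35, against 25.0% and 23.8% of 8748 genes, with 1 past the fold threshold (Psmc3ip, −1.68, SE 0.33, adjusted p = 0.0004048) against 26.3% and a median of 0.20 against 0.00. The higher ones included 4 of 6 base ATPases (Psmc1, Psmc2, Psmc4 and Psmc5), 3 of 8 lid genes and 2 of 7 alpha genes. Psmd5, which was lower with LPS at 3.5 h, was at 66.1, 60.2, 68.8 and 56.7 CPM with LPS at 16 h, above all control cultures of that time (49.9, 46.8, 45.3, 46.6 and 28.8 CPM). The difference between its effects was 0.99 (SE 0.18, adjusted p = 0.0001885), and 0.92 without both deviating libraries. Psmc1 was 0.00 from control at 3.5 h and 0.96 at 16 h, a difference of 0.97 (SE 0.20, adjusted p = 0.0008235). Psmb7 (0.47, SE 0.19, adjusted p = 0.04804) was lost without both deviating libraries (0.31, adjusted p = 0.0749). It was also lost on leaving out any of 12 cultures in turn (adjusted p between 0.0556 and 0.0960), namely Control 3.5 h replicates 1, 2, 3 and 5, LPS 3.5 h replicates 1, 2 and 3, Control 16 h replicates 2 and 3, and LPS 16 h replicates 1, 2 and 4. Psmb5 (0.21) and Psmb6 (0.08) had no called difference.

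Each catalytic gene has an inducible partner that can take its place, so the share of the partner within the pair was computed per exon length in every culture. This share needs no scaling between libraries, but its level depends on the annotated exon lengths. It is also not corrected for the trend on gene length within a library. At 16 h short genes lay highest in Control replicate 5, VWF replicate 4 and LPS replicate 4. These had the lowest Psmb8 share of their groups (13.2, 23.6 and 34.1%) and the highest Psmb10 share (94.0, 88.6 and 96.8%). At 3.5 h such an order did not hold in every group. The part of length in the shares was not tested. From counts not divided by length, the mean Psmb8 share was 41.76, 54.85 and 70.31% in control, VWF and LPS cultures at 3.5 h. The Psmb9 share was then 13.42, 21.63 and 37.17% and the Psmb10 share 59.01, 75.07 and 86.44%. The order of the groups was the same, but which gene of the Psmb5 and Psmb8 pair was larger depended on the length scaling. Psmb8 made up 16.8, 16.4, 14.8, 17.1 and 15.1% of Psmb5 plus Psmb8 in control cultures at 3.5 h. With VWF it made up 24.0, 23.1, 22.8, 25.7 and 26.6%, and with LPS 35.4, 39.9, 39.9 and 39.6%. The 3 groups did not overlap, and at 16 h the means were 15.0% ± 1.53 (SD, n = 5), 24.4% ± 0.812 (n = 5) and 38.4% ± 3.08 (n = 4), again without overlap. Psmb9 made up 7.35% ± 1.08, 12.4% ± 0.933 and 23.2% ± 0.746 of Psmb6 plus Psmb9 at 3.5 h in control, VWF and LPS cultures, and 8.58% ± 1.10, 16.5% ± 1.40 and 22.9% ± 1.11 at 16 h. The order of the groups was the same at both times and no 2 groups of a time overlapped.

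Psmb10 was the larger partner of Psmb7 in all groups, at 74.2% ± 3.05 in control, 85.8% ± 2.47 with VWF and 92.7% ± 1.34 with LPS at 3.5 h, without overlap. At 16 h the control cultures were at 73.4, 73.2, 77.0, 74.4 and 94.0%, the last being Control replicate 5. VWF cultures were at 81.4, 83.8, 82.4, 88.6 and 82.6%, and LPS cultures at 92.7, 94.1, 92.6 and 96.8%. Of 18 comparisons of shares (3 pairs, 6 comparisons), 16 had the smallest p that a two-sided exact permutation test allows (0.00794 for 5 against 5 cultures and 0.0159 for 5 against 4; Benjamini-Hochberg adjusted p = 0.0179 for each). The other 2 were Psmb10 at 16 h, with a difference from control of 5.37 percentage points for VWF (exact permutation p = 0.246, adjusted p = 0.246) and 15.6 for LPS (exact permutation p = 0.0476, adjusted p = 0.0504). Without Control replicate 5 these were 9.28 (adjusted p = 0.0168) and 19.5 (adjusted p = 0.0303). The share rises with the partner even where the constitutive gene is level, and the log2 fold changes of Psmb8, Psmb9 and Psmb10 at 3.5 h were 0.99, 1.45 and 1.34 with VWF and 2.27, 3.00 and 2.62 with LPS.

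**Figure D4:**
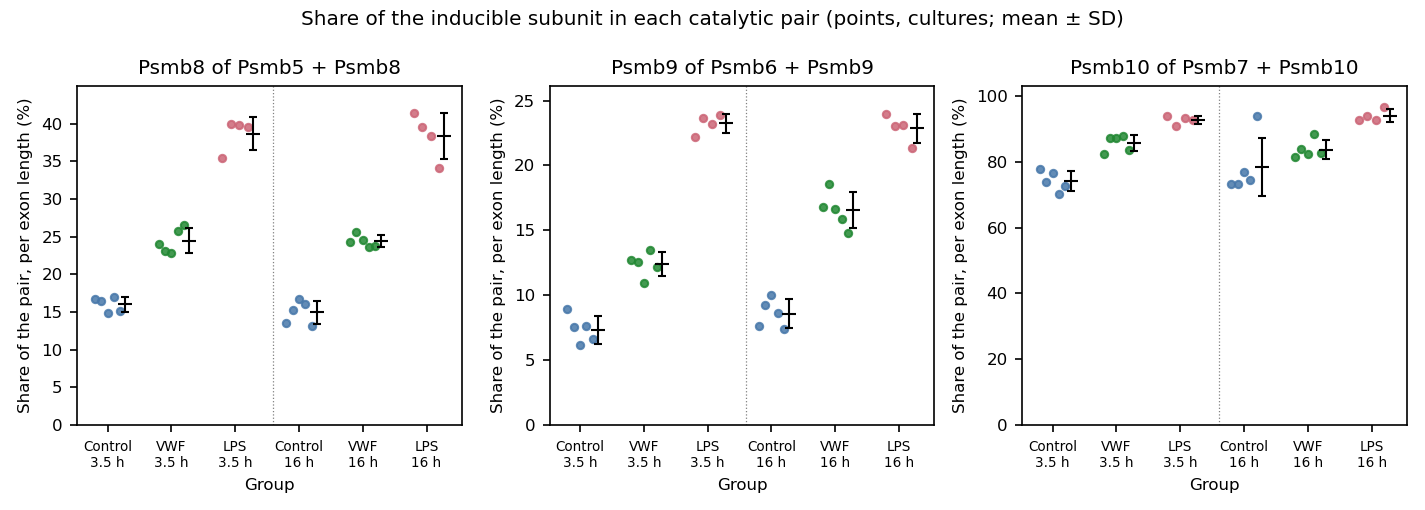
Share of the inducible gene in each catalytic pair (y axis, percent of the pair's level per exon length, from 0) in the 6 groups (x axis), with 1 point per culture and the mean ± SD. For Psmb8 and Psmb9 the control, VWF and LPS cultures form 3 separate levels at both times, and for Psmb10 Control replicate 5 at 16 h lies with the LPS cultures.

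Summed over their genes in TPM, the 14 subunits of the 20S core and the 17 of the 19S particle were compared as sums. The core summed to 2905 ± 317 TPM (SD, n = 5) in control, 3568 ± 365 (n = 5) with VWF and 3213 ± 221 (n = 4) with LPS at 3.5 h. The regulatory particle summed to 2410 ± 64.6, 2314 ± 42.4 and 1940 ± 51.7 TPM in the same groups, and every LPS culture lay below every control culture. These sums are scaled to the library total and are not relative to the median gene. Under library size scaling the median gene itself was at −0.55 with LPS at 3.5 h. At 16 h the core was at 3620 ± 429, 4602 ± 285 and 5160 ± 986 TPM and the regulatory particle at 2563 ± 63.8, 2768 ± 80.8 and 2709 ± 113 TPM. The core made up 54.5% ± 2.42 of the summed subunit level in control, 60.5% ± 2.59 with VWF and 62.3% ± 1.29 with LPS at 3.5 h, and 58.4% ± 2.45, 62.4% ± 2.01 and 65.3% ± 3.22 at 16 h. At 3.5 h the control cultures (51.1 to 56.9%) lay below all VWF (57.5 to 63.2%) and LPS cultures (60.4 to 63.4%). At 16 h Control replicate 5, at 62.8%, lay within the range of the VWF cultures (60.2 to 65.7%) and just below the lowest LPS culture (62.81 against 62.77%). The other 4 control cultures (56.9 to 57.6%) lay below all treated cultures. A sum is led by its most abundant genes, here Psmb5, Psmb6 and Psma6 in the core, and no test was run on it. Their exon lengths are short (899, 1872 and 1234 bases). In each 3.5 h group the core's percentage was lowest in the culture where short genes lay lowest. These were Control replicate 4 (−0.284, log2), VWF replicate 5 (−0.276) and LPS replicate 2 (−0.142). At 16 h it was highest where short genes lay highest, in Control replicate 5, VWF replicate 4 and LPS replicate 4. The percentages are not corrected for gene length, and the part of length was not tested.

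**Figure D5:**
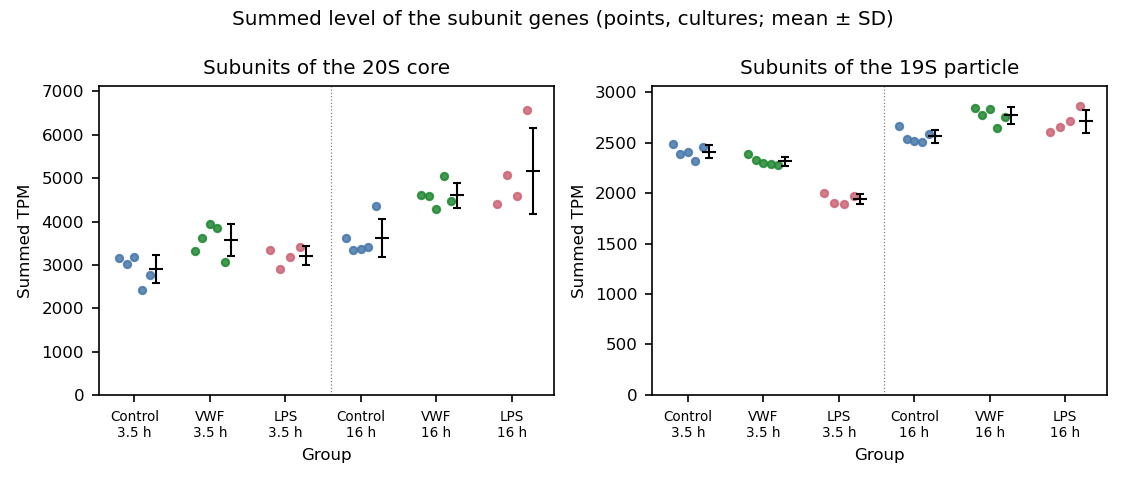
Summed TPM (y axis, from 0) of the 20S core genes (left) and the 19S genes (right) in the 6 groups (x axis), with 1 point per culture and the mean ± SD. In the left panel both treated groups are above control on average at each time, and in the right panel the LPS cultures at 3.5 h form the lowest group, at 1940 TPM on average. TPM is scaled to the library total, not to the median gene.

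Genes around the constitutive particle were described from lists of its inducible parts and its helpers. Of 5 inducible genes (Psmb8, Psmb9, Psmb10 and the PA28 activator genes Psme1 and Psme2), all 5 were higher with VWF at 3.5 h and with LPS at both times, and 4 with VWF at 16 h, where Psmb10 was not called (0.80, adjusted p = 0.1535). Their median log2 fold change was 1.34 and 1.11 with VWF and 2.62 and 2.84 with LPS at 3.5 h and 16 h. Psme2 had the largest rise of them with VWF at both times, by 1.80 (SE 0.22) and 1.31 (SE 0.26), and Psme1 rose by 0.88 and 1.11. With LPS, Psme1 and Psme2 rose by 1.74 and 2.73 at 3.5 h and by 2.52 and 2.98 at 16 h. Of 5 assembly factors of the core, 0 were called with VWF at either time, with medians of −0.02 and −0.03. With LPS at 3.5 h Pomp (0.67) and Psmg4 (0.53) were higher, though neither under library size scaling (0.14 and 0.00). With LPS at 16 h Psmg1 fell by 0.78 and Psmg2 by 1.35, and Psmg3 was not called in any comparison with control. Over all genes tested, the shares higher and lower were 22.3% and 21.3% (VWF, 3.5 h), 31.8% and 33.9% (LPS, 3.5 h), 13.1% and 14.7% (VWF, 16 h) and 27.3% and 26.4% (LPS, 16 h). Of 14 other subunits and associated factors tested, higher and lower calls numbered 1 and 2 (VWF, 3.5 h), 3 and 5 (LPS, 3.5 h), 2 and 1 (VWF, 16 h) and 4 and 5 (LPS, 16 h). Among them Psme4, a nuclear activator, rose by 1.19 with LPS at 16 h, while the deubiquitinases Usp14 and Uchl5 fell by 0.81 and 0.79 and the shuttle factor Ubqln2 by 0.96.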

How the data were processed

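RNA of 28 BMDM cultures in 6 groups had been sequenced in bulk. The authors mapped the paired reads of 150 bases with STAR to GRCm38 (mm10), per the methods of the study and the submitters' processing notes, and deposited whole-number counts of reads per gene for 54532 Ensembl genes, neither normalized nor filtered. Which annotation and strand setting they counted with, and what they did with multiply mapped reads, is not given in the sources used here. Depth was 41131209 to 77699206 counts per culture. None of 52 pairs of cultures within a group agreed within sampling noise (chi-square per degree of freedom at least 17.08).

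Identifiers were matched to GENCODE M21, whose exon lengths gave TPM. Genes with at least 10 TPM in 1 or more cultures of a comparison entered it, as in the study, which tested with DESeq2. For the values here, edgeR 4.0.16 in R 4.3.3 was used with TMM normalization and its quasi-likelihood test (robust), with only the groups of a comparison in the model and Benjamini-Hochberg adjustment over all genes in it. The procedure was tested on simulated data. Shares were compared by exact permutation tests (scipy 1.17.1). Alternatives were DESeq2 1.42.0, median-of-ratios and library size factors, no filter, 1 model for all cultures, the replicate number as a block, the fold threshold of the study, shares without length scaling, and leaving out each culture. A correction for gene length and the joint omission of 2 deviating cultures were chosen later, once the data had been seen. The labels number the replicates without saying what a number marks. Same-numbered cultures deviated together (Pearson's r over 0.1 in each of 4 pairs, 0.19 to 0.848) between VWF and LPS at 16 h, and not in each pair of any other comparison.

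Named with values were the 3 catalytic genes and, among called members whose groups did not overlap, the 3 largest changes in each direction against control and the 2 largest in other comparisons. The members, lists and tests were chosen with earlier results of these data known. Promoter windows were those of RefSeq (GRCm38.p6). Each member was searched for stretches of 100 bases that another gene also has. Their share was 0 in 22 of the 37 members and over 10% in 5. Some results of 1 gene list are not reported here.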

Additional observations from a re-analysis of the deposited data

Results flagged for a closer look

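In groups of 4 or 5 cultures, the named members and the 3 shares were searched for a culture whose gap to its nearest neighbour is large against the range of the group (Dixon's criterion). Of 108 groups tested, 16 were marked. Chance marks about 1 in 20 independent groups, but these were read in the same libraries, so that rate is no measure here. Of the 16, 13 were Control replicate 5 at 16 h. In that culture Psmb5 (462 CPM), Psmb6 (865), Psmd8 (738), Psma6 (299.7), Psmc1 (266), Psmb3 (224), Psma5 (105) and Psmd10 (55.6) were above the other 4 control cultures. Psmb2 (71.6 CPM), Psmb7 (48.5), Psmd1 (44.7) and Psmd5 (28.8) were below them, and the Psmb10 share was above them at 94.0%. The remaining 3 were VWF replicate 4 at 16 h, high in Psmb5 (445 CPM) and Psmb6 (525), and LPS replicate 1 at 3.5 h, low in the Psmb8 share (35.4%).

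The effect of an agonist differed between 16 h and 3.5 h, by the interaction test, in 5 of 35 members for VWF and 14 of 35 for LPS. Of all genes tested, 15.9% had a higher and 16.6% a lower effect at 16 h for VWF, and 25.0% and 23.8% for LPS. These differences are therefore not particular to the members. For VWF the log2 differences were 1.12 in Psmc3ip, 0.43 in Psmb2, 0.43 in Psmd12, 0.41 in Psma7 and −0.53 in Psmd10. For LPS they were 0.99 in Psmd5, 0.97 in Psmc1, 0.95 in Psmd1, 0.94 in Psmd12, 0.79 in Psma5, 0.67 in Psmb2, 0.66 in Psmd11, 0.55 in Psmc2, 0.49 in Psmd3, 0.49 in Psma7, 0.47 in Psmc5, 0.47 in Psmb7, 0.31 in Psmc4 and −1.68 in Psmc3ip.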

How the results depend on the processing

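The 11 comparisons gave 22 counts of called members (higher, lower) and 64 values of named members, 47 of them called. Where no cause is given, the cause was not tested. Median-of-ratios factors changed no call of a named member, and DESeq2 added 2 calls and lost 0. Library size scaling lost 10 of the 47 calls and gave 3 and 2 members for VWF at 3.5 h, 5 and 9 for LPS at 3.5 h, 13 and 2 for VWF against LPS at 3.5 h, 10 and 3 for LPS at 16 h, 15 and 7 for VWF against LPS at 16 h, 1 lower over time with VWF and 10 higher in the VWF interaction. The fold threshold, stricter by construction, gave 2 and 0 for VWF at 3.5 h, 5 and 0 for LPS at 3.5 h, 0 and 0 for VWF against LPS at 3.5 h, 0 and 0 for VWF at 16 h, 8 higher for LPS at 16 h, 3 lower for VWF against LPS at 16 h, 0 and 0 over time in control, 2 and 0 with VWF, 2 with LPS, 1 and 0 in the VWF interaction and 0 higher in the LPS interaction. Without the length trend, an alternative chosen after seeing the data, 22 members were higher for VWF and 5 for VWF against LPS at 3.5 h, 5 higher and 2 lower over time in control, 5 lower with VWF and 1 with LPS, and 4 lower in the VWF interaction. Without the filter, more genes entered the adjustment, and 0 were lower for VWF and 2 for LPS at 16 h, 1 higher over time in control, 1 lower with VWF, 2 and 0 in the VWF and 8 higher in the LPS interaction. In 1 model of all cultures 14 were higher over time in control and 1 lower with VWF. DESeq2 gave 1 lower over time with LPS and 3 in the VWF interaction.

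The replicate block gave 5 lower for VWF against LPS at 3.5 h, 0 lower for VWF at 16 h, 2 higher and 21 lower for VWF against LPS at 16 h, 4 higher over time in control, 1 lower with VWF and 0 lower in the VWF interaction. It lost 6 and added 1 of the calls of named members. Since the labels do not say what a number marks, whether same-numbered cultures were paired is unknown in every comparison.

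Leaving out 1 culture gave 2 to 13 lower for VWF against LPS at 3.5 h, 0 to 1 lower for VWF at 16 h, 4 to 9 higher over time in control, 0 to 3 lower with VWF, 0 to 1 lower with LPS, and 3 to 7 higher and 0 to 2 lower in the VWF interaction. The Psmb10 share differed by 4.07 to 9.28 points for VWF and 14.3 to 19.5 points for LPS at 16 h (exact permutation test, adjusted p = 0.0168 to 0.460 and 0.0303 to 0.113). Without Control replicate 5 and LPS replicate 4 at 16 h together, also chosen after seeing the data, 32 members were higher for LPS at 16 h.

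The sign changed in 12 of the 64 values, 3 of them called. Under library size scaling 6 changed sign, and all 6 stayed on the same side of the median gene. That is no separate check, since this scaling moves all genes of a comparison by nearly the same amount. Library size scaling gave −0.056 for Psmb7 with LPS at 3.5 h, 0.0031 for Psmb5 and 0.092 for Psmb7 in VWF against LPS at 3.5 h, 0.12 for Psmb5 and 0.16 for Psmb7 at 16 h, and 0.065 for Psmb6 over time with VWF. Without the length trend Psmb5 was at 0.085 in VWF against LPS at 3.5 h, Psmb7 at −0.019 over time in control and Psmd5 at 0.047 over time with VWF, and without the filter Psmb7 was at −0.016 over time in control. Leaving out 1 culture, Psmb6 ranged from −0.38 to 0.24 for VWF at 16 h (0.24 without Control 16 h replicate 5), Psmb5 from −0.55 to 0.062 for VWF against LPS at 16 h (0.062 without LPS replicate 4), Psmb7 from −0.028 to 0.16 over time in control and Psmb6 from −0.21 to 0.10 with VWF. In the VWF interaction Psmb5 ranged from −0.088 to 0.53, and in the LPS interaction Psmb5 from −0.24 to 0.62 and Psmb6 from −0.32 to 0.56.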

Other observations

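Genes known to control proteasome genes included both higher and lower ones. Of 6 tested genes for transcription and processing of the regulator NRF1, 2 were higher and 2 lower with VWF at 3.5 h (median log2 fold change 0.18), 2 higher and 3 lower with LPS at 3.5 h (−0.70), 0 higher and 2 lower with VWF at 16 h (−0.28), and 4 higher and 2 lower with LPS at 16 h (0.69). Over all genes tested, in the same order, 22.3% were higher and 21.3% lower, 31.8% and 33.9%, 13.1% and 14.7%, and 27.3% and 26.4%. The NRF1 gene Nfe2l1 rose by 1.17 with VWF at 3.5 h (SE 0.10, adjusted p = 1.755e-06), from a mean of 148 to 328 CPM, and by 0.31 with LPS at 3.5 h (adjusted p = 0.007733), where library size scaling put it at −0.23 and the median gene at −0.55. At 16 h it was at 0.00 with VWF (adjusted p = 0.9923) and rose by 0.88 with LPS (adjusted p = 3.792e-05). Ddi2, which encodes the protease that activates NRF1, fell by 1.21 with VWF and by 2.41 with LPS at 3.5 h, and by 0.38 and 0.93 at 16 h. The NRF2 gene Nfe2l2 rose by 0.59 with VWF and fell by 1.25 with LPS at 3.5 h, and fell by 0.39 and 0.31 at 16 h. The small MAF partner genes also differed, with Mafk higher by 2.17 with LPS at 3.5 h and at 0.18 (adjusted p = 0.2099) with VWF. What these genes have to do with the subunit genes was not tested.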
